A study of Homo sapiens with 4 samples.

Results

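The transcripts described here are 8 long noncoding RNAs (lncRNAs) of the HOXA and HOXB gene clusters: HOTAIRM1, HOXA-AS2, HOXA-AS3, HOXA10-AS, HOXA11-AS, HOTTIP, HOXB-AS1 and HOXB-AS3. They were taken by gene symbol, matched through the Ensembl identifier, and all 8 were found among the 58037 genes of the count table. RNA-Seq was carried out on OCI-AML3, an established human acute myeloid leukemia cell line with a heterozygous NPM1 mutation (mtNPM1), a heterozygous DNMT3A mutation and a homozygous NRAS mutation, from which both groups were made. Cells were transfected with the control guide sgNeg or with sgNPM1A, a guide directed at the mutant NPM1 allele, and harvested 3 days later. There were 2 libraries of each group, and no cloning of edited cells is described, so the RNA may be that of a mixed culture. The comparison asks what becomes of these transcripts when mtNPM1 is edited.

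HOX genes encode homeodomain transcription factors and lie in 4 clusters, in which neighbouring genes are often switched on and off together. Immature blood cells express genes of the HOXA and HOXB clusters and lower them as they mature, and leukemias with mutant NPM1 keep them high. The same clusters produce noncoding transcripts, most of them from the opposite strand to the coding genes. HOTTIP, from the 5′ end of the HOXA cluster, is known to bind WDR5 and to help maintain active chromatin at the neighbouring genes, while HOTAIRM1, at the other end, was described in maturing myeloid cells. HOXB-AS3 contains a short reading frame reported to be translated into a peptide in colon cells.

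The libraries held 25069484 to 28276391 counts, so that 3 counts, the floor used here, equal 0.108 to 0.118 CPM (counts scaled to library size with the TMM factors of edgeR), for counting error only. The targeted gene NPM1 had 33522 and 35881 counts with sgNeg and 33154 and 31428 with sgNPM1A, both alleles together (log2 fold change -0.22, edgeR adjusted p = 0.036). This change is smaller than the 0.32 on the log2 scale required for a call, so NPM1 was not called lower. Of the 8 myeloid markers 7 were tested and 4 rose, namely MPO and LYZ, which encode granule enzymes, SPI1, a myeloid transcription factor, and CSF3R, the G-CSF receptor. The sum of the list was 1349 and 1324 CPM with sgNeg and 4081 and 4810 CPM with sgNPM1A. Most of this difference was that of LYZ, which had 270.6 and 215.1 CPM with sgNeg and 2643 and 3367 CPM with sgNPM1A. Without LYZ the list summed to 1078 and 1108 CPM with sgNeg and 1438 and 1443 CPM with sgNPM1A. KIT had 0 to 2 counts. All 3 T cell markers were at 0 in every library, the B cell list summed to at most 2.05 CPM, the erythroid list to at most 0.116 CPM and the epithelial list to at most 1.78 CPM, with EPCAM at 0. The part of the myeloid marker change in the lncRNA values was not tested, and in bulk RNA fewer cells with a transcript and less of it per cell cannot be told apart.

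Of the 8 lncRNAs, 6 fell with sgNPM1A, 0 rose, 1 did not pass the test and 1, HOXA-AS3, had too few counts to be tested. No member rose at an unadjusted p under 0.05 either, nor with DESeq2 or limma. Their levels are drawn for every library. Changes are given as log2 fold changes of sgNPM1A against sgNeg (log2FC) from the quasi-likelihood test of edgeR, called where the p-value adjusted over all genes was below 0.05 and the change exceeded 0.32 on the log2 scale. By this rule 10.3% of the 15718 tested genes were called lower and 10.5% higher, and of the 1889 tested lncRNAs 6.25% were called lower. The median log2FC was -2.09 over the 7 tested members, against 0.00 over all tested genes and 0.09 over the tested lncRNAs. A fall of at least 2-fold was found in 5 members and in 3.19% of all tested genes. In 6 of the 7 tested members, and in HOXA-AS3, both sgNPM1A libraries lay below both sgNeg libraries, a separation found in this direction in 31.7% of all tested genes.

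**Figure D1:**
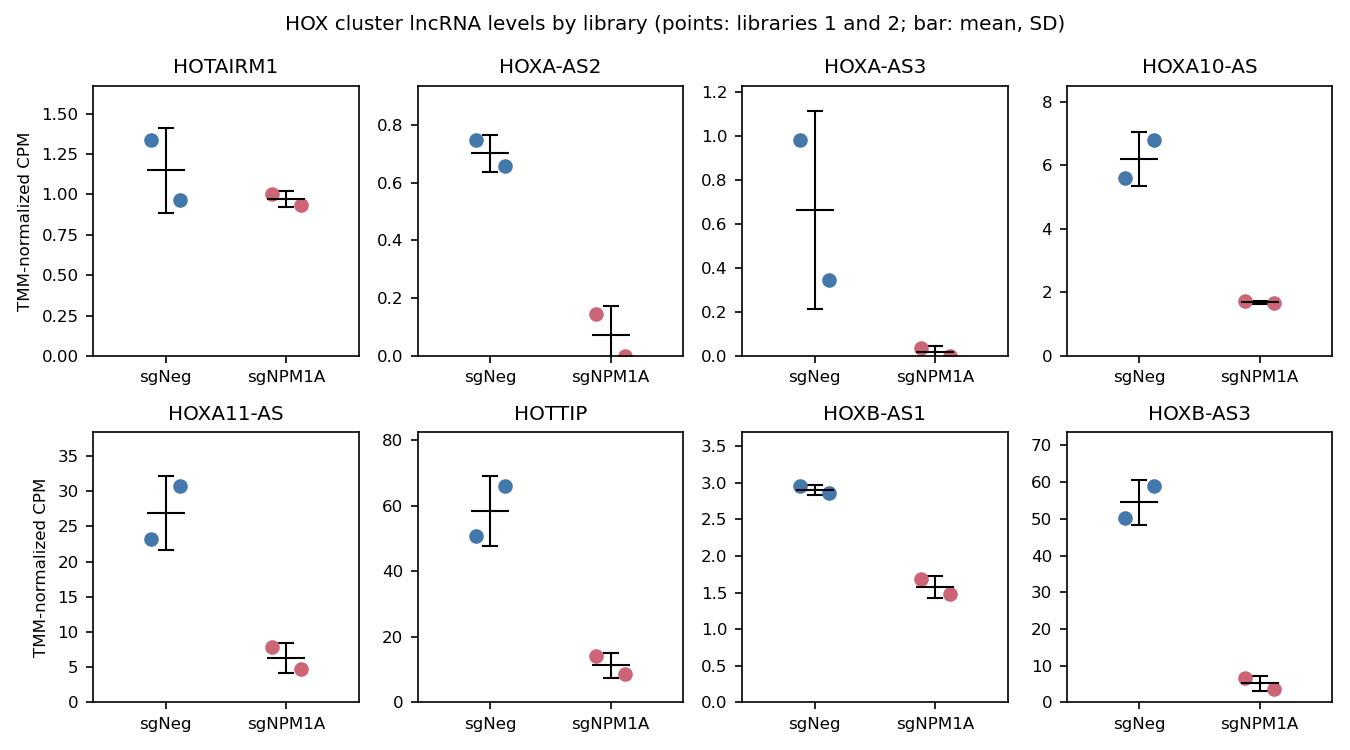
TMM-normalized CPM (vertical axis, from 0, with its own scale in each panel) of the 8 HOX cluster lncRNAs in sgNeg and sgNPM1A. Points are the libraries 1 (left) and 2 (right), the long bar is the mean and the error bar the SD over 2 libraries, cut at 0. The groups overlap for HOTAIRM1 and for no other member.

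HOTTIP was the most abundant HOXA member per length. The gene (ENSG00000243766) lies on chromosome 7 of GRCh38 from 27200421 to 27207259 on the plus strand, and starts 330 bases from the start of HOXA13, which is read in the opposite direction. It had 1295 and 1708 counts in the sgNeg libraries and 393 and 238 counts in the sgNPM1A libraries. The groups did not overlap. The level fell from 58.4 ± 10.6 to 11.3 ± 3.91 CPM (SD, n = 2), with log2FC -2.37 ± 0.19 (SE, edgeR adjusted p = 4.46e-06). This is 5.15-fold lower, with a 95% interval of 3.89 to 6.83. HOXA11-AS (ENSG00000240990), whose start lies 176 bases from that of HOXA11, spans 27185408 to 27189293 on the plus strand of chromosome 7. Its counts were 590 and 794 with sgNeg and 219 and 132 with sgNPM1A. The level fell from 26.9 ± 5.27 to 6.31 ± 2.19 CPM (SD, n = 2), with log2FC -2.09 ± 0.20 (SE, edgeR adjusted p = 1.77e-05) and a 4.27-fold lower level. The groups of both genes were separated by more than the distance between their own libraries.

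Because both transcripts start close to a coding gene that is read the other way, the sequence between and around such starts is shown for them. Each window is reference sequence of RefSeq on GRCh38.p14, plus strand, 5′ to 3′, ending with the first 50 bases after the RefSeq start of the lncRNA. In the GENCODE annotation both windows lie inside the span of the lncRNA gene. Exons of HOXA11-AS transcripts cover all of its sequence shown, and an exon of HOTTIP begins at base 267 of its window. The sequences are therefore not all upstream of every annotated transcript. That of HOTTIP is chr7:27200171-27200470 and that of HOXA11-AS is chr7:27185233-27185457, where the first 75 bases of the window were left out because they lie in an exon of HOXA11. Capitals mark ATTGG, the reverse complement of the CCAAT box.
HOTTIP: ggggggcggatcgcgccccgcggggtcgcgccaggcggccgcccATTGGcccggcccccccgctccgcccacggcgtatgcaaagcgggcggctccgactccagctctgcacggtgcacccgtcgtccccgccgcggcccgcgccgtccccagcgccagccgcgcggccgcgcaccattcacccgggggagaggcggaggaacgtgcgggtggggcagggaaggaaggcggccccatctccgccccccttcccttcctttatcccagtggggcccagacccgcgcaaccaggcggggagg
HOXA11-AS: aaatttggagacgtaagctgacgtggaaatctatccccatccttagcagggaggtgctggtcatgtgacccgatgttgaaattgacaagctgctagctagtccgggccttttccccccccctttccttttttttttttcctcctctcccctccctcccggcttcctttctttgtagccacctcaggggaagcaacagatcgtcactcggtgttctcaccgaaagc
The HOTTIP window holds 41 CpG dinucleotides in 300 bases, against a median of 14 over all 35116 promoters of the table, and has a GC content of 78%. The full window of HOXA11-AS holds 12 CpG. Both strands were searched for 4 motifs. TGATNNAT, the HOX-PBX motif, is held by 7.4% of all promoters of the table. The MEIS motif TGACAG is held by 15.8%, the CCAAT box by 34.6% and the sequence TATAAA by 11.5%. The CCAAT match in the HOTTIP window was its only match, and no match was found in that of HOXA11-AS.

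HOXA10-AS (ENSG00000253187, chromosome 7 from 27168899 to 27171915, plus strand) overlaps HOXA10 by 1311 bases. It had 142 and 176 counts with sgNeg and 48 and 46 counts with sgNPM1A. Its sgNPM1A libraries lay closer together than those of any other member that fell, with a ratio of 0.962 between their CPM. The level fell from 6.19 ± 0.855 to 1.69 ± 0.0462 CPM (SD, n = 2), with log2FC -1.87 ± 0.19 (SE, edgeR adjusted p = 3.08e-05), or 3.66-fold with an interval of 2.74 to 4.88. Of its annotated exon bases, 62.3% also lie in exons of other genes on the opposite strand, 36.8% in those of HOXA10 and 25.5% in those of HOXA9. Whether reads were counted by strand is not given in the sources used here, so reads from these bases cannot be assigned to either gene. This shared portion was 1.69% in HOTTIP, 1.74% in HOTAIRM1, 13.1% in HOXA-AS2, 27.7% in HOXA11-AS, 29.6% in HOXB-AS1, 30.1% in HOXB-AS3 and 39.3% in HOXA-AS3.

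The members in the middle of the HOXA cluster were scarce. HOXA-AS2 (ENSG00000253552, 27121919 to 27128760, plus strand), which overlaps HOXA3 and, by 236 bases, HOXA4, had 19 and 17 counts with sgNeg and 4 and 0 counts with sgNPM1A. The level fell from 0.702 ± 0.0644 to 0.0718 ± 0.101 CPM (SD, n = 2), with log2FC -3.21 ± 0.69 (SE, edgeR adjusted p = 0.0059). The 95% interval of the fold, 3.20 to 26.6, is the widest of the tested members. Without sgNPM1A replicate 2, the library with 0 counts, the log2FC was -2.25 (edgeR adjusted p = 0.0373). Without sgNPM1A replicate 1 it was -7.22, a fitted value against a single library with 0 counts that sets no bound.

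HOXA-AS3 (ENSG00000254369, 27140364 to 27155928, plus strand) overlaps HOXA3, HOXA5, HOXA6 and HOXA7. It had 25 and 9 counts with sgNeg and 1 and 0 counts with sgNPM1A. The sgNPM1A libraries were lower, but the sgNeg libraries themselves differed, with a ratio of 0.353. The filter on low counts left it out of the test. The ratio of summed counts, scaled by library size, was 36.9, with an exact 95% counting interval of 6.18 to 1498 that does not include the spread between libraries. With no filter on low counts its log2FC was -4.89 (edgeR adjusted p = 2.2e-07), and with DESeq2 it was -5.21 (adjusted p = 0.0185). Its promoter window, chr7:27146913-27147212 of GRCh38.p14, was taken at a start inside the gene's span. It is shown since it was the only member's window with a match to the HOX-PBX or MEIS motif. Capitals mark, in order, matches on the opposite strand to the HOX-PBX motif, the MEIS motif and the CCAAT box.
HOXA-AS3: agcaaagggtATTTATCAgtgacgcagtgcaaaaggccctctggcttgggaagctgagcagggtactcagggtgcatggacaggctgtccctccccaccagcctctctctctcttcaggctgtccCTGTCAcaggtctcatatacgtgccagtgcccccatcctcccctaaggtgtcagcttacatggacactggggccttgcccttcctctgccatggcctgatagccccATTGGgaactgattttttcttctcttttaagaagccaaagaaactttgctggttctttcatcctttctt
A match gives letters only and says nothing on binding. In the windows of HOXA-AS2 and HOXB-AS1 none of the 4 motifs was found, and that of HOXB-AS3 held CCAAT alone. The windows of the 6 members in the RefSeq table held between 2 and 41 CpG, and all but that of HOTTIP were below the median of all promoters.

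HOTAIRM1 was the tested member that did not pass. The gene (ENSG00000233429, chromosome 7 from 27096094 to 27100258, plus strand) lies at the 3′ end of the cluster. It had 34 and 25 counts with sgNeg and 28 and 26 counts with sgNPM1A, so that the groups overlapped. The level was 1.15 ± 0.263 CPM with sgNeg and 0.970 ± 0.0482 CPM with sgNPM1A (SD, n = 2), with log2FC -0.24 ± 0.30 (SE, edgeR adjusted p = 0.596). The ratio of sgNeg to sgNPM1A had a 95% interval of 0.754 to 1.86. A fall of the size seen in HOXA10-AS, HOXA11-AS or HOTTIP lies outside this interval, while a fall of 1.5-fold lies within it. Without sgNeg replicate 1 the log2FC was 0.0068.

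The HOXB cluster holds HOXB-AS3, which had the lowest log2FC of the 7 tested members, and HOXB-AS1. HOXB-AS3 (ENSG00000233101, chromosome 17 from 48590420 to 48606414, plus strand) overlaps HOXB5 and HOXB6. It had 1276 and 1523 counts with sgNeg and 183 and 105 counts with sgNPM1A. The level fell from 54.5 ± 6.09 to 5.17 ± 1.97 CPM (SD, n = 2), with log2FC -3.40 ± 0.18 (SE, edgeR adjusted p = 2.36e-07). This is 10.5-fold lower, with an interval of 8.03 to 13.8, and the value ranked 23 from the lowest among the 15718 tested genes. The rank was 30 for HOXA-AS2, 89 for HOTTIP, 131 for HOXA11-AS, 175 for HOXA10-AS, 751 for HOXB-AS1 and 3529 for HOTAIRM1.

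HOXB-AS1 (ENSG00000230148, chromosome 17 from 48544351 to 48551241, plus strand) overlaps HOXB2 and HOXB3. Its counts were 75 and 74 with sgNeg and 47 and 41 with sgNPM1A. The level fell from 2.90 ± 0.0659 to 1.58 ± 0.148 CPM (SD, n = 2), with log2FC -0.87 ± 0.21 (SE, edgeR adjusted p = 0.0101). The groups did not overlap, but the call was lost with DESeq2 (adjusted p = 0.108) and without sgNPM1A replicate 2 (edgeR adjusted p = 0.078).

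Levels of different genes were compared per length, as CPM per kilobase of annotated exon (RPKM), which takes the exons of all transcripts as the length. With sgNeg the order of mean RPKM was HOXB-AS3 with 28.5, HOTTIP with 11.5, HOXA11-AS with 8.61, HOXA10-AS with 3.74, HOXB-AS1 with 1.86, HOTAIRM1 with 0.770, HOXA-AS2 with 0.129 and HOXA-AS3 with 0.112. In this order the libraries of neighbours did not overlap, except for HOXA-AS2 and HOXA-AS3, and those of HOTTIP and HOXA11-AS were closer than the spread within either. With sgNPM1A the mean was 2.70 for HOXB-AS3, 2.23 for HOTTIP and 2.02 for HOXA11-AS, whose libraries overlapped one another. HOXA10-AS had 1.02, HOXB-AS1 1.01 and HOTAIRM1 0.649, and the libraries of HOXA10-AS and HOXB-AS1 overlapped.

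The coding genes of both clusters fell along with the lncRNAs. Of 11 HOXA coding genes, all tested, 10 fell. Their median log2FC was -3.29, or -2.43 with HOXA2 and HOXA4, at 0 counts in both sgNPM1A libraries, set at their bounds. HOXA2 was at least 6.14-fold lower and HOXA4 at least 5.24-fold lower, counting 3 counts per library as the floor. Of 10 HOXB coding genes 9 were tested and 8 fell, with a median of -1.78. Their log2FC ran from -4.15 in HOXB8, below that of HOXB-AS3, to 0.35 in HOXB5, which did not pass the test. None of the 9 HOXC and 9 HOXD coding genes had enough counts to be tested. The change of each gene is plotted against its place in the cluster.

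**Figure D2:**
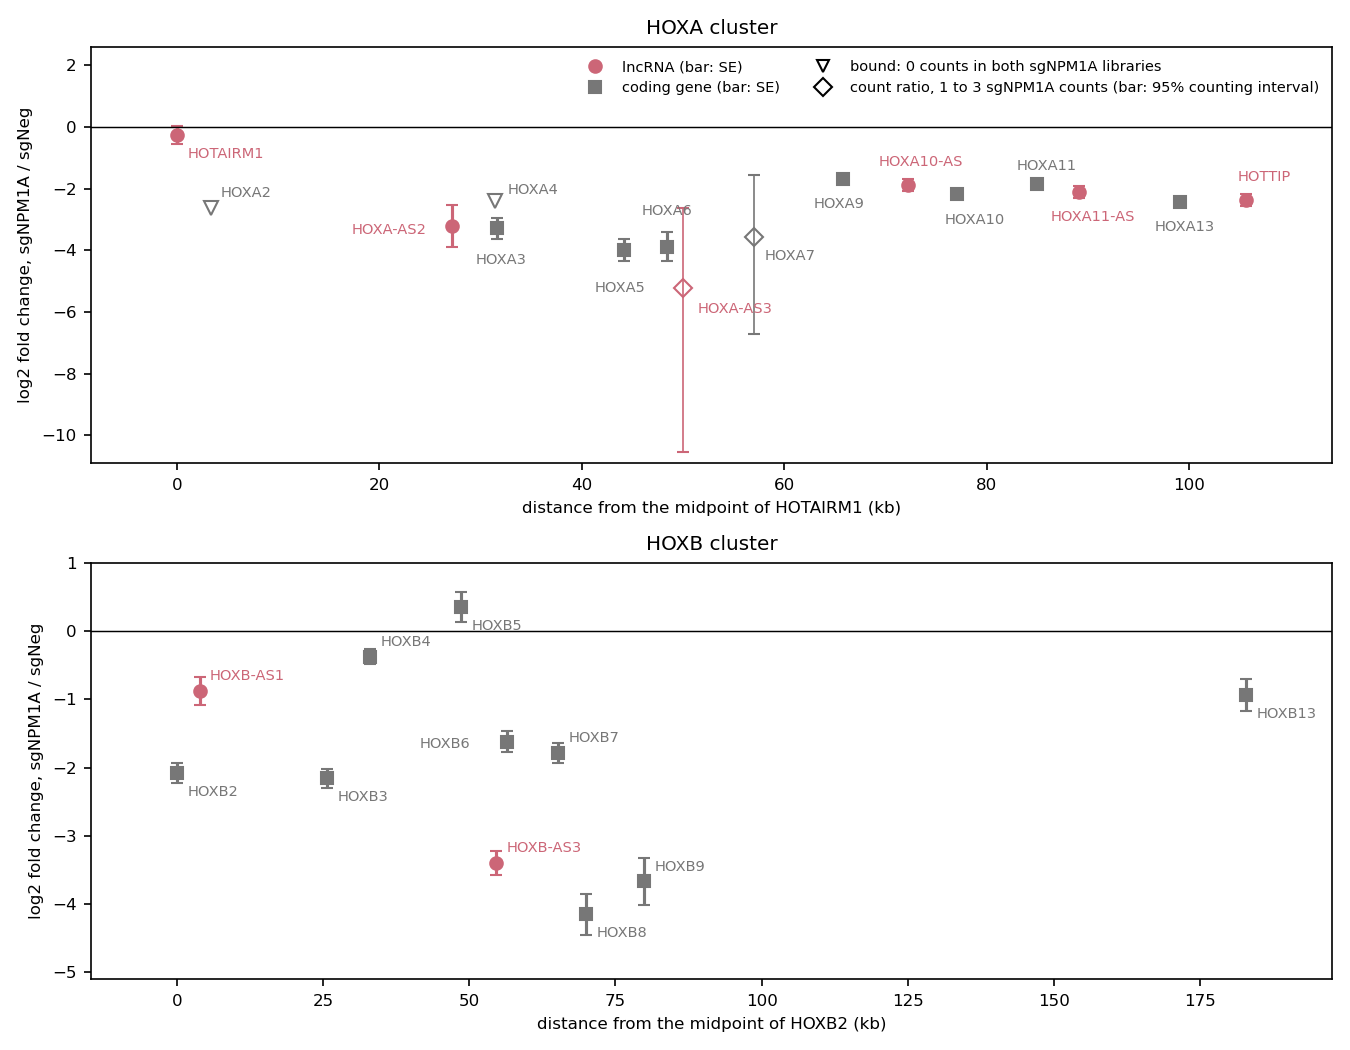
Log2 fold change of sgNPM1A against sgNeg (vertical axis) against distance along each cluster (kb between midpoints, from the first gene drawn), for lncRNAs (circles) and coding genes (squares), with standard errors. Open triangles are bounds for genes at 0 in both sgNPM1A libraries, and open diamonds are count ratios with a 95% counting interval. HOTAIRM1 is near 0 at the left end with -0.24, and HOXB-AS3 at -3.40 lies below HOXB5 and HOXB6 beside it.

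Each member was next set against the coding genes that its span overlaps, or the nearest one, as a ratio of RPKM within each library. With 2 libraries against 2, the two-sided exact permutation test of such a ratio cannot give a p below 0.333, so that these values are a description. HOTTIP stood at 0.391 and 0.534 of HOXA13 with sgNeg and at 0.525 and 0.425 with sgNPM1A (exact permutation p = 1). HOXA13, a posterior HOX factor, had a log2FC of -2.43 (edgeR adjusted p = 1.16e-07) beside the -2.37 of HOTTIP. HOXA11-AS stood at 0.354 and 0.457 of HOXA11 with sgNeg and at 0.398 and 0.280 with sgNPM1A (exact permutation p = 0.667). In these pairs the groups overlapped, so that no change of the lncRNA relative to its neighbour was detectable. Of the exon bases of HOXA11-AS, 23.2% lie opposite exons of HOXA11, while 1.69% of those of HOTTIP lie opposite HOXA13. The strand setting is unknown, and how far shared reads enter the ratios was not tested. The ratio of HOXA10-AS to HOXA10 was 0.136 and 0.172 with sgNeg and 0.173 and 0.214 with sgNPM1A, with the groups barely apart (exact permutation p = 0.333). HOXA10 had a log2FC of -2.185, beside the -1.87 of HOXA10-AS. HOXA9, which also shares exon bases with HOXA10-AS but is no neighbour by the rule used, had -1.69. The direction relative to a coding gene thus depends on the gene taken.

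In the HOXB cluster the ratios did not overlap between groups, and they were lower with sgNPM1A for HOXB-AS3 and higher for HOXB-AS1. The ratio of HOXB-AS3 to HOXB6 was 7.39 and 7.38 with sgNeg and 2.80 and 1.54 with sgNPM1A, and HOXB6 had a log2FC of -1.62 (edgeR adjusted p = 1.8e-05). HOXB5, a patterning factor of the same cluster, had 86 and 56 counts with sgNeg and 105 and 92 with sgNPM1A, with a log2FC of 0.35 (edgeR adjusted p = 0.278). The ratio of HOXB-AS3 to HOXB5 was 14.4 and 26.4 with sgNeg and 1.69 and 1.11 with sgNPM1A. HOXB-AS3 was thus lower relative to both neighbours in both sgNPM1A libraries, while the groups of HOXB5 itself overlapped. Of the exon bases of HOXB-AS3, 22.2% lie opposite exons of HOXB6, 4.03% opposite those of HOXB3 and 3.82% opposite those of HOXB5. On the same strand, 3.03% also lie in exons of HOXB-AS1. HOXB-AS1 moved the other way, from 0.184 and 0.154 of HOXB2 with sgNeg to 0.356 and 0.431 with sgNPM1A, and from 0.367 and 0.342 to 0.772 and 0.991 of HOXB3. HOXB2 and HOXB3 had log2 fold changes of -2.08 and -2.16, both called, beside the -0.87 of HOXB-AS1. Exons of HOXB3 lie opposite 24% of the exon bases of HOXB-AS1, and those of HOXB2 opposite 5.58%. How far shared reads enter the HOXB ratios was not tested. In each of these 4 HOXB pairs the groups did not overlap and the exact permutation p was 0.333, the smallest possible.

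**Figure D3:**
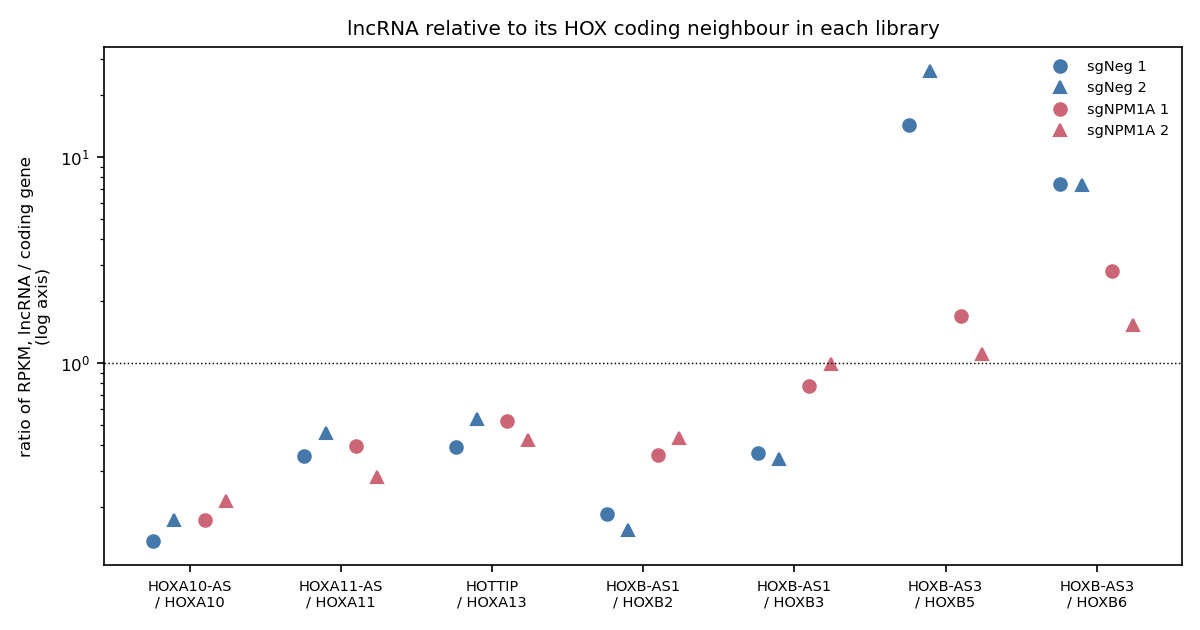
Ratio of RPKM of a lncRNA to that of a HOX coding gene (log axis) in each library, for 7 pairs. Circles are libraries 1 and triangles libraries 2. The ratios to HOXA13 and HOXA11 overlap between sgNeg and sgNPM1A, those of HOXB-AS3 drop and those of HOXB-AS1 go up.

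HOXA-AS2 and HOXA-AS3 had 0 counts in sgNPM1A replicate 2, so that no ratio is given for them. The coding genes they overlap all fell. HOXA3 had 91 and 100 counts with sgNeg and 16 and 5 with sgNPM1A, and HOXA5 had 203 and 181 against 22 and 4. HOXA6 went from 31 and 40 counts to 3 and 2, and HOXA7 from 11 and 11 counts to 2 and 0.

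The spread between libraries of the same group was itself shared by some members. In sgNPM1A replicate 2 the CPM was 0.608 of that in replicate 1 for HOTTIP, 0.605 for HOXA11-AS and 0.576 for HOXB-AS3, whereas it was 0.932 for HOTAIRM1 and 0.876 for HOXB-AS1. Between the sgNeg libraries the ratio of replicate 2 to 1 was 1.29 for HOTTIP, 1.32 for HOXA11-AS and 1.17 for HOXB-AS3. The 4 members HOTTIP, HOXA11-AS, HOXB-AS3 and HOXA10-AS were thus higher in sgNeg replicate 2 and lower in sgNPM1A replicate 2, the pattern of 31.4% of tested genes and of 35.3% of those called lower. The difference between conditions exceeded this spread in each of them.

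**Figure D4:**
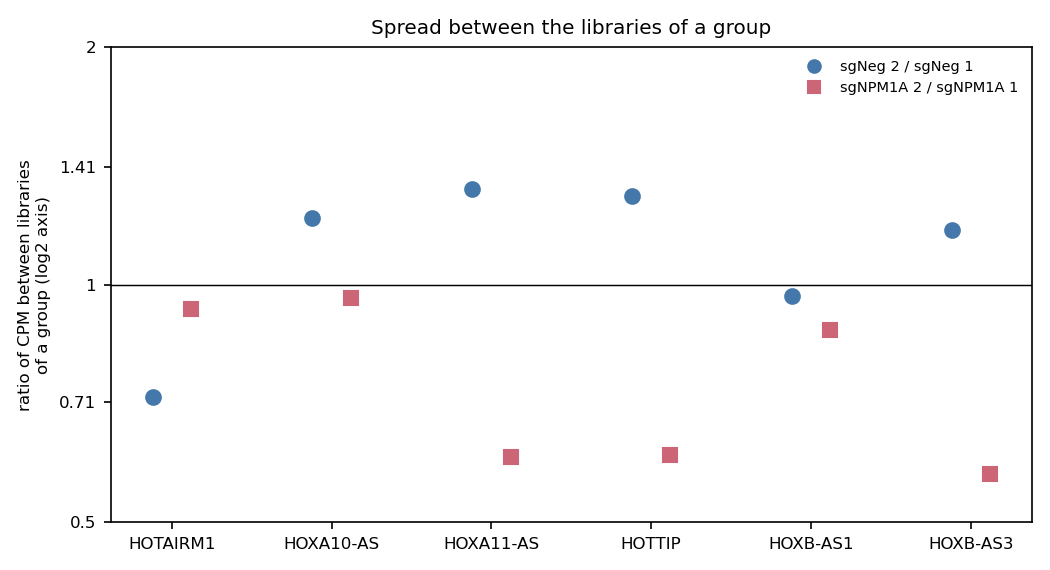
Ratio of CPM in replicate 2 to that in replicate 1 (log2 axis) within sgNeg (circles) and within sgNPM1A (squares), for the 6 members with more than 4 counts in every library. HOTTIP, HOXA11-AS and HOXB-AS3 lie near 0.6 in sgNPM1A and above 1 in sgNeg, while HOTAIRM1 and HOXB-AS1 lie below 1 in both.

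By Euclidean distance of centred log2 CPM over the 4 libraries, over 13094 genes averaging 1 CPM or more, those most like HOTTIP were RHEX (distance 0.21), DLL1, a Notch ligand (0.24), and NPY, neuropeptide Y (0.25). Those most like HOXB-AS3 were LHX2-AS1 (0.09), ONECUT3 (0.16) and KIF25-AS1 (0.16). The distances use log2 CPM with a prior count of 2, which shrinks the changes of genes with few counts. By edgeR the log2FC was -2.25 for RHEX, -2.19 for DLL1 and -2.46 for NPY, beside -2.37 for HOTTIP. It was -3.77 for LHX2-AS1, -3.79 for ONECUT3 and -3.85 for KIF25-AS1, beside -3.40 for HOXB-AS3. These falls thus differ from that of HOXB-AS3 by more than the distances show.

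Other noncoding genes of the clusters were mostly silent. Of 17 symbols on the list, 11 were matched in the table, 0 were tested and 5 had no count in any library. HOTAIR, from the HOXC cluster, had between 0 and 2 counts, and HOXB-AS2 had 8 and 2 counts with sgNeg and 1 and 1 with sgNPM1A. Among cluster lncRNAs without a symbol, 2 were chosen after their values were seen. ENSG00000253508, on the opposite strand to HOXA11-AS, had 540 and 636 counts with sgNeg and 93 and 60 with sgNPM1A, with a log2FC of -3.06 (edgeR adjusted p = 4.19e-07). ENSG00000257178, in the HOXB cluster, had 28 and 19 counts against 6 and 2, with a log2FC of -2.63 (edgeR adjusted p = 0.00342).

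Of 10 tested genes that regulate HOX clusters or act with HOX factors, 2 fell and 8 were not called, with a median log2 fold change of -0.09. MEIS1, a HOX cofactor, had 967 and 963 counts with sgNeg and 235 and 146 with sgNPM1A, and PBX3, another, had 698 and 781 against 535 and 529. Among the genes not called, KMT2A had a log2 fold change of -0.29 (edgeR adjusted p = 0.0172), short of the fold threshold alone. The next lowest adjusted p among them was 0.207 (edgeR), that of MEN1. WDR5, to which HOTTIP is known to bind, had 172.9 ± 5.78 CPM with sgNeg and 177.9 ± 2.67 CPM with sgNPM1A (SD, n = 2).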

How the data were processed

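The authors mapped read pairs to hg38 with STAR and Samtools and deposited unnormalized counts of reads on each Ensembl gene in 4 libraries. The counting program, its strand setting and the annotation release are not given in the sources used here. ERCC spike-ins were added, but no scaling by them was used. Samples were grouped by the labels. The study's text calls the libraries biological replicates, and p-values measure only the spread between these libraries. The lncRNAs, gene lists and tests were chosen with earlier results of these data known.

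Counts were fitted over the whole table with edgeR 4.0.16 in R 4.3.3 (filterByExpr with a minimum count of 10, TMM, robust quasi-likelihood test, two-sided) and p-values were adjusted over all 15718 tested genes. The script was tested on simulated data. The SE of an edgeR log2FC was derived from the test, as its size over the square root of the quasi-likelihood F statistic. Intervals of folds are 95%, rest on this SE and use the moderated degrees of freedom. Named genes were the members, their neighbours, fixed lists of HOX genes, HOX regulators and cell markers, and the 3 nearest patterns to HOTTIP and HOXB-AS3. Symbols were found for 55603 genes. Gene positions are RefSeq on GRCh38, while exon lengths and overlaps come from GENCODE on GRCh37, so that RPKM rests on another release than the counts. Promoter windows run from 250 bases before to 50 after each RefSeq start, and 6 of 8 members matched. A window of HOXB-AS3 was searched but is not shown, and the values of a coding gene of the lists are not reported here. The alternatives were DESeq2 1.42.0, limma 3.58.1, other scalings, filters and fold thresholds, a replicate block, and leaving out each library.

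The labels number the libraries 1 and 2 in each group and give no other link. Across genes the deviations of same-numbered libraries had a correlation of -0.130, and of -0.523 over 8856 genes with a mean CPM above 10, so the numbers were not taken to pair the samples. The labels give alpha-MEM and the study's methods RPMI as medium.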

Additional observations from a re-analysis of the deposited data

How the results depend on the processing

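Under each alternative 0 members were called higher. The count of 6 members called lower was 6 with limma, the replicate block and the crossed block. It was 5 with a fold of at least 2 or at least 10 counts in every library, and 7 with no filter. The count was also 6 with DESeq2, but of other members: HOXB-AS1 was not called and HOXA-AS3, not tested in the main fit, was. With each library left out it was 6 to 7, a design in which the lone library is assumed to vary like the others. The log2 fold changes of HOTTIP, HOXA10-AS, HOXA11-AS, HOXA-AS2 and HOXB-AS3 kept their direction and call under every alternative run that gave a value, and lay between -2.77 and -2.05, -2.01 and -1.72, -2.50 and -1.77, -7.22 and -2.25, and -3.84 and -3.05. HOXB-AS1 lay between -0.97 and -0.78 and was called in 10 of 12. HOTAIRM1 lay between -0.46 and 0.0068 with each library left out, 0.0068 being the value without sgNeg replicate 1, and was called in 0 of 12. HOXA coding genes called lower fell to 5 with at least 10 counts in every library, since fewer could be tested.

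The replicate block left 1604 genes called lower and 1637 higher, against 1619 and 1653 without it, and changed no call of a member. The crossed pairing, chosen after the correlation of same-numbered libraries was seen, gave 1918 and 1955. With a fold of at least 2 the counts were 502 and 498. With library size only they were 1947 and 1433, and the median of all tested genes moved to -0.04. Depth limits HOXA-AS2 and HOXA-AS3, with at most 4 counts in an sgNPM1A library.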
